A study of Amphimedon queenslandica with 43 samples.

Results

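Larvae of the demosponge Amphimedon queenslandica kept in constant dark were compared with larvae kept under a natural day-night regime, both at 9 hours post emergence (hpe), the age chosen by the study to represent larvae competent to settle. The comparison took 7 constant-dark and 8 day-night larvae by their sample titles, 15 of the 43 larvae in the series. The constant-dark larvae were held behind a neutral density filter that passed 6.6% of the ambient daylight, so this regime was dim light that still followed the daylight outside, not full darkness. The day-night larvae had the ambient light. Every larva was collected in a window of 30 minutes that began at 11 am, and was in filtered sea water under its regime by 0.5 hpe. For context, the values of 7 larvae under constant light from a full-spectrum tube at 9 hpe, and of 7 larvae of each regime at 1 hpe, stand beside those of the compared groups. Age and time of day cannot be told apart, since 9 hpe fell later in the same day than 1 hpe.

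Each library came from 1 whole larva and was made by CEL-Seq2, a barcoded protocol that counts transcripts at their 3' ends. The larvae were separate individuals, but the labels give neither their parents nor a batch, and the p-values refer to the spread among these individuals only. In whole larvae, fewer cells of a type and less RNA per cell cannot be told apart.

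The swimming larva of this sponge moves away from light, steered by a ring of pigmented cells with long cilia at its posterior pole. The sponge has no opsins, the light receptors of most animal eyes, and a cryptochrome, a flavin-binding protein of the family that senses blue light in many organisms, is expressed around the ring. A larva must swim for some hours before it becomes competent to respond to cues for settlement and metamorphosis. The deposited identifiers of the transcript models are not paired with gene names, and 0 of the 47411 matched the RefSeq gene table. No function, sequence or position can therefore be given for any model, cryptochromes included, and the models are described by their levels.

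The libraries of both groups were alike in depth. Total counts averaged 2508200 ± 462630 in constant-dark larvae (SD, n = 7) and 2489100 ± 452800 in day-night larvae (n = 8), with an exact two-sided permutation p of 0.923. Counts were found for 20432 ± 770 models per constant-dark larva and 20654 ± 798 per day-night larva (exact permutation p = 0.586). The 100 most abundant models took 13.4 ± 1.05% of the counts in constant-dark larvae and 14.9 ± 1.04% in day-night larvae, a difference of -1.46 percentage points (exact permutation p = 0.00917, Benjamini-Hochberg adjusted p = 0.0275 over 3 library measures). The difference in that share kept its sign without any single larva, between -1.68 and -1.13 points. Its adjusted p was above 0.05 without constant-dark replicate 2, 4, 5 or 7 or day-night replicate 2, 5 or 7, reaching at most 0.0759.

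At 9 hpe, constant-dark larvae had lower levels of many more models than they had higher ones. Of 14188 models with enough counts to test, 242 differed between the regimes at an adjusted p below 0.05, which is 1.71% of those tested (edgeR quasi-likelihood test, adjusted over all tested models). Of these, 198 were lower in constant dark (1.4% of the tested models) and 44 were higher (0.31%). At an unadjusted p below 0.05 there were 1508 models (10.6%). The median log2 fold change, constant dark over day-night, was 0.00 over all tested models, with quartiles of -0.25 and 0.23. The scaling of the libraries sets this median near 0.

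**Figure D1:**
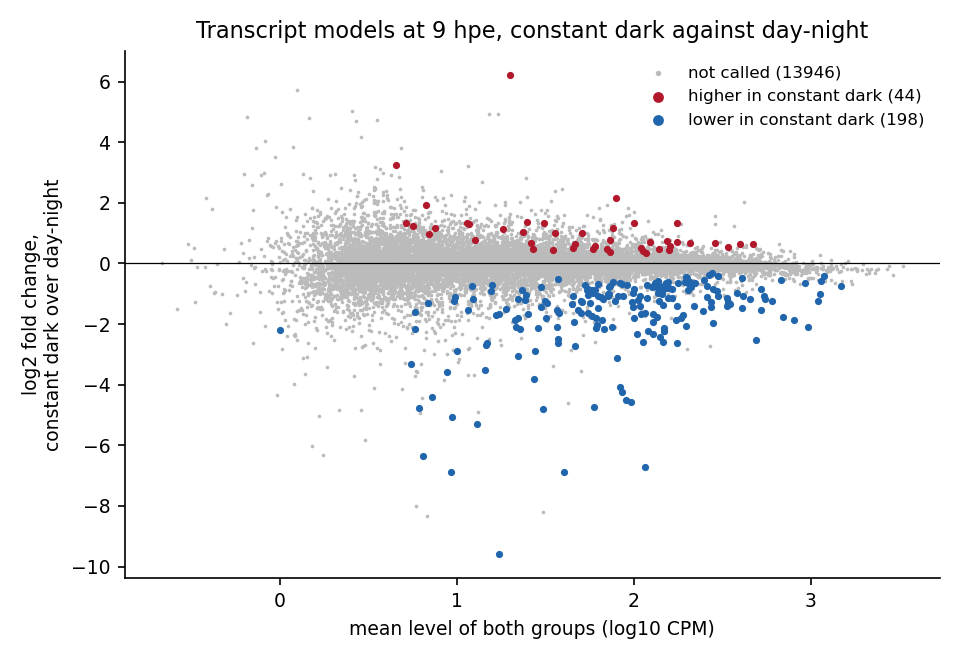
Log2 fold change at 9 hpe, constant dark over day-night (vertical axis), against the mean level of both groups in log10 CPM (horizontal axis), with 1 point per tested model. The 198 models lower in constant dark reach down to -9.58 and the 44 higher ones up to 6.23, with most of the higher ones below a 2-fold change.

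Levels are given as CPM, the counts of a model scaled to the total of its library. CPM lack the further scaling of the fit, and the median tested model stood higher at 9 hpe than at 1 hpe in every regime. Steps in CPM between the ages can therefore differ from the fitted changes with age. The lower models had the larger changes. Their median log2 fold change was -1.29, with quartiles of -2.05 and -0.88. Of the 198, 61 differed by less than 2-fold, 86 by 2- to 4-fold, 36 by 4- to 16-fold and 15 by more than 16-fold. Most of these models were of middle to high abundance in day-night larvae, where the median model of the list stood at 143 CPM, against 49.9 CPM in constant-dark larvae. The mean in day-night larvae was below 10 CPM for 4 of them, 10 to 100 CPM for 82, 100 to 1000 CPM for 103 and above 1000 CPM for 9, with a highest mean of 1832 CPM.

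The 44 higher models moved less. Their median log2 fold change was 0.73, with quartiles of 0.54 and 1.26, and 26 of the 44 differed by less than 2-fold. A further 15 differed by 2- to 4-fold, 2 by 4- to 16-fold and 1 by more than 16-fold. Their median level was 72.0 CPM in constant-dark larvae, against 40.6 CPM in day-night larvae, and no model of the list exceeded 583.5 CPM in constant dark.

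Larvae of both groups were fully apart for some of these models. All 7 constant-dark values lay below all 8 day-night values for 102 of the 198 lower models, as they did for 107 of all tested models (0.754%). They lay above all day-night values for 14 of the 44 higher models, and for 33 of all tested models (0.233%). In both directions together, 140 tested models (0.987%) were without overlap. The median coefficient of variation per model in the lower list was 25% in constant-dark larvae and 25.2% in day-night larvae, and in the higher list 24.2% in constant-dark larvae and 23.5% in day-night larvae. Over all tested models it was 38.7% in constant-dark larvae and 40.6% in day-night larvae, but the test favours models of low spread and the called models are more abundant, so the lower values are largely fixed by the choice. Within the group with the higher level, no lower model had most of its summed CPM from 1 larva, and 1 of the 44 higher models did, Aqu2.1.08473_001, described further on.

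Both ends of the abundance range are represented among the lower models. In 9 of them the constant-dark mean was below 1 CPM, with means from 0 to 0.723 CPM in constant-dark larvae and from 1.65 to 80.4 CPM, median 18.3, in day-night larvae. Constant-light larvae of the same age had means from 0.417 to 38.2 CPM for these models, median 2.06. At the other end, the 9 models above 1000 CPM in day-night larvae had means from 335.7 to 1160 CPM in constant dark, against 1063 to 1832 CPM in day-night. Their log2 fold changes lay between -2.08 and -0.40, and 8 of the 9 were without overlap. These sets were chosen after their values were seen and are descriptions. The highest count in the whole table was 8192, reached 23 times, and no called model had any count of 8000 or more.

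Aqu2.1.36115_001 had the largest change among the lower models. It was at 0 in all 7 constant-dark larvae. In the 8 day-night larvae it ran from 1.25 to 73.6 CPM, with a median of 35.6. Every day-night larva had at least 3 counts of this model, and no constant-dark larva had any. With a floor of 3 counts over the constant-dark group, its level was at least 195-fold lower than in day-night larvae. The fitted log2 fold change of -9.58 ± 1.49 (SE) depends on the prior count and is no bound (edgeR adjusted p = 4.64e-05). With limma voom the adjusted p was 0.0597. The model remained called in 9 of the 15 fits that left out 1 larva, and in 15 of 24 alternative settings. In the others, limma voom aside, the filter on low counts dropped it. In constant-light larvae at 9 hpe it was found in 5 of 7 larvae, with a mean of 0.906 ± 1.09 CPM.

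Aqu2.1.21224_001 was nearly absent in constant dark as well. Constant-dark larvae had from 0 to 3.82 CPM, with a median of 0.376, and day-night larvae from 43.2 to 145 CPM, with a median of 78.3. The lowest day-night larva was far above the highest constant-dark larva, replicate 6, which held most of the 11 counts of its group. Its log2 fold change of -6.89 ± 0.80 (SE) had an edgeR adjusted p of 6.11e-08, and was -8.45 without constant-dark replicate 6. Constant-light larvae at 9 hpe had 14 to 61.5 CPM with a median of 38.2, all above the constant-dark larvae and in part within the day-night range. All 3 regimes were near the floor at 1 hpe, with means of 1.13 CPM under constant dark, 0.231 CPM under constant light and 0.519 CPM under day-night.

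Aqu2.1.25383_001 was the first of the named models higher in constant dark. It ran from 198 to 281 CPM in constant-dark larvae, with a median of 212, and from 98.1 to 164 CPM in day-night larvae, with a median of 130. All constant-dark larvae were above all day-night larvae, with means of 222 ± 30.0 CPM (SD, n = 7) for constant dark and 128 ± 22.3 CPM (n = 8) for day-night. Its log2 fold change of 0.72 ± 0.12 (SE) had an edgeR adjusted p of 4.04e-05, and the call held without each single larva and in every alternative setting but the test against a 1.5-fold change (adjusted p = 1). At 1 hpe the constant-dark mean was 209 CPM and the day-night mean 231 CPM, so the 9 hpe day-night larvae were the low group for this model. The fitted log2 change with age was -0.16 in constant dark (edgeR adjusted p = 0.375) and -1.04 in day-night (adjusted p = 5.16e-09). Constant-light larvae averaged 177 CPM at 9 hpe and 163 CPM at 1 hpe.

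Aqu2.1.36255_001 was the other higher model named, and its call was weak. It ran from 205 to 343 CPM in constant-dark larvae, with a median of 244, and from 109 to 183 CPM in day-night larvae, with a median of 155. The groups did not overlap, and the log2 fold change of 0.68 ± 0.18 (SE) had an edgeR adjusted p of 0.0386. It stayed past the threshold in 10 of 24 alternative settings, with the test against a 1.5-fold change not among them. Without constant-dark replicate 1, 2, 3 or 6, or day-night replicate 1, 3, 4, 7 or 8, the log2 fold change was 0.60 to 0.70 with adjusted p-values of 0.055 to 0.118. Constant-light larvae averaged 225 CPM at 9 hpe, and the 1 hpe means were 311 CPM under constant dark, 258 CPM under constant light and 301 CPM under day-night.

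**Figure D2:**
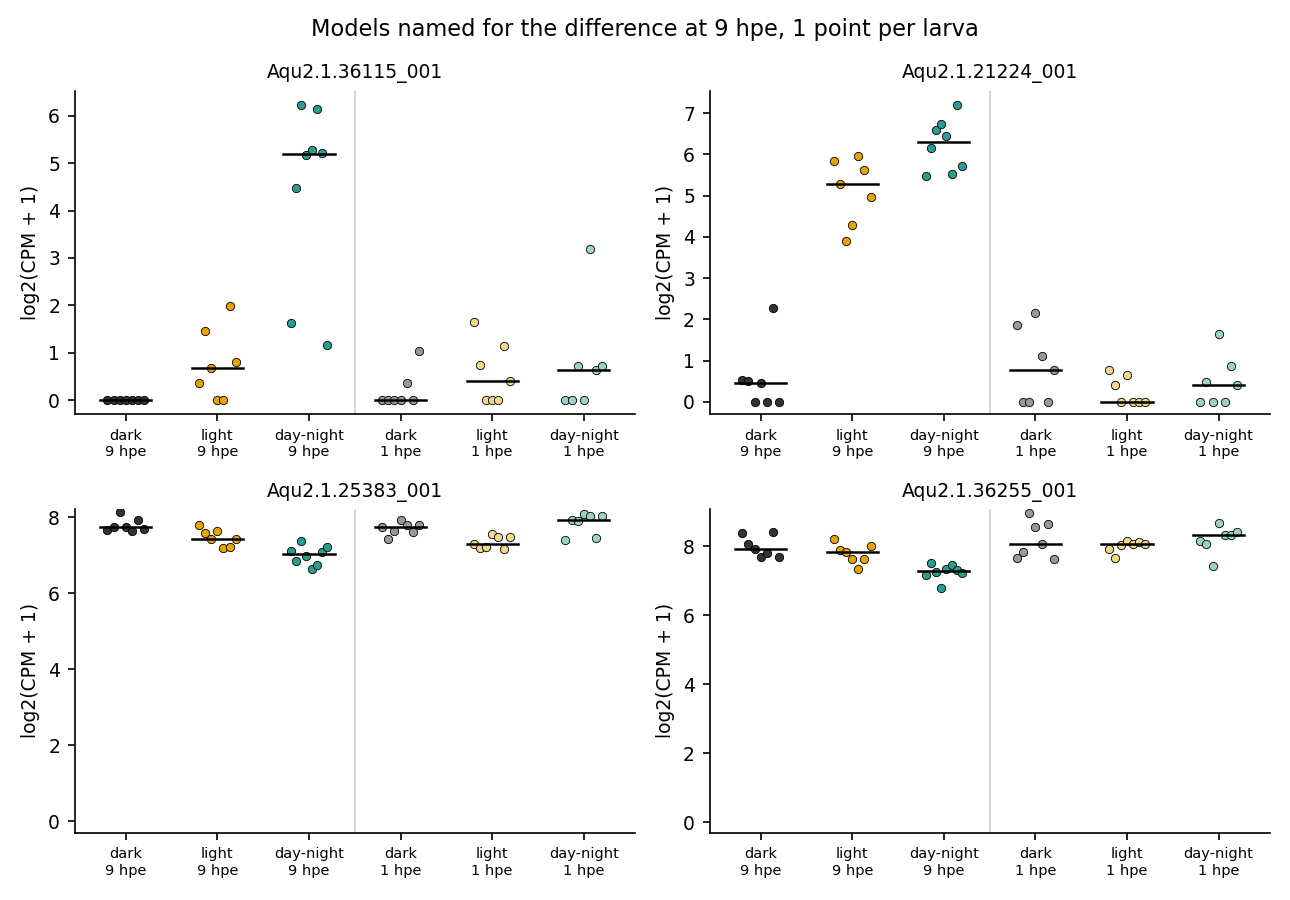
Levels of the 4 models named for the difference at 9 hpe, as log2(CPM + 1) on the vertical axis, with 1 point per larva and the group median as a line, for constant dark, constant light and day-night at 9 hpe (left of the grey line) and at 1 hpe (right of it). Aqu2.1.36115_001 is at 0 in all 7 constant-dark larvae at 9 hpe, and Aqu2.1.25383_001 is lowest in the 8 day-night larvae at 9 hpe, at 98.1 to 164 CPM.

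The called models were next set against their level at 1 hpe, averaged over the constant-dark and day-night groups of that age, in classes chosen after seeing the data. Among the 84 tested models below 1 CPM at 1 hpe, 8 were lower in constant dark at 9 hpe, 9.52% of the class. These 8 had a median of 0.662 CPM in constant-dark larvae, 1.60 CPM in constant-light larvae and 21.8 CPM in day-night larvae at 9 hpe. The class of 1 to 10 CPM held 36 lower models of 5579 (0.645%), with medians of 8.33 CPM (constant dark), 9.53 CPM (constant light) and 33.9 CPM (day-night). The class of 10 to 100 CPM held 104 of 6299 (1.65%), with medians of 49.9 CPM (constant dark), 60.7 CPM (constant light) and 119 CPM (day-night). The class of 100 CPM and over held 50 of 2226 (2.25%), with medians of 209 CPM (constant dark), 264 CPM (constant light) and 378 CPM (day-night). The median log2 fold change, constant dark over day-night, was -5.18 in the lowest class, -2.17 and -1.29 in the middle classes and -0.91 in the highest. Models below 1 CPM at 1 hpe could enter the test only with higher counts in another group, so the large changes of that class and its share of 9.52% are in part set by the filter. Of the 44 higher models, 0 were in the lowest class, 6 in the second, 24 in the third and 14 in the highest.

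The larvae taken at 1 hpe were not compared to choose the lists, but the filter, the scaling and the estimate of spread were shared over all larvae. At that age the regimes differed in 2 of 14188 models (0.0141%), both lower in constant dark, Aqu2.1.41011_001 and Aqu2.1.33783_001, of which 1 is among the 198 lower models at 9 hpe. Aqu2.1.41011_001 averaged 62.8 CPM in constant-dark larvae at 1 hpe, against 165 CPM in day-night larvae, a log2 fold change of -1.40 (edgeR adjusted p = 0.000447). At 9 hpe it averaged 41.7 CPM in constant-dark larvae, against 83.5 CPM in day-night larvae, and the log2 fold change of -1.09 ± 0.20 (SE) had an adjusted p of 0.000392. This model was named after its values were seen. Aqu2.1.33783_001, described further on, had a log2 fold change of -5.01 at 1 hpe (edgeR adjusted p = 0.0157). There, 1 day-night larva had 424 CPM and the next 6.03 CPM, and the call at 1 hpe was not tested without that larva. Over the 198 lower models the median log2 difference at 1 hpe, constant dark over day-night, was 0.02, and 106 of the 198 (53.5%) were on the higher side, against 48.4% of all tested models. Over the 44 higher models the median was 0.00.

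The change with age was read side by side in each regime. In the lower list the median log2 fold change, 9 over 1 hpe, was 0.15 under constant dark, 0.51 in constant light and 1.36 in day-night. The same medians over all tested models were 0.01 in constant dark, 0.00 in constant light and 0.01 in day-night. In the higher list they were 0.10 in constant dark, -0.17 in constant light and -0.84 in day-night. The constant-dark mean at 9 hpe was nearer to the 1 hpe level, averaged over both regimes on the log2(CPM + 1) scale, than the day-night mean for 174 of the 198 lower models (87.9%) and for 26 of the 44 higher models (59.1%), against 44.6% of all tested models. On that scale the median tested model averaged 3.95 at 1 hpe and 4.29 at 9 hpe in constant dark. In day-night it averaged 3.98 at 1 hpe and 4.22 at 9 hpe. Such a general rise in CPM brings the group of lower level at 9 hpe nearer to 1 hpe. It thus adds to the 87.9% and takes from the 59.1%, by an amount that was not tested. The age changes in constant dark and day-night use the same 9 hpe larvae that chose the lists, so that they are descriptions, and a wide gap between those regimes is largely fixed by the choice.

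**Figure D3:**
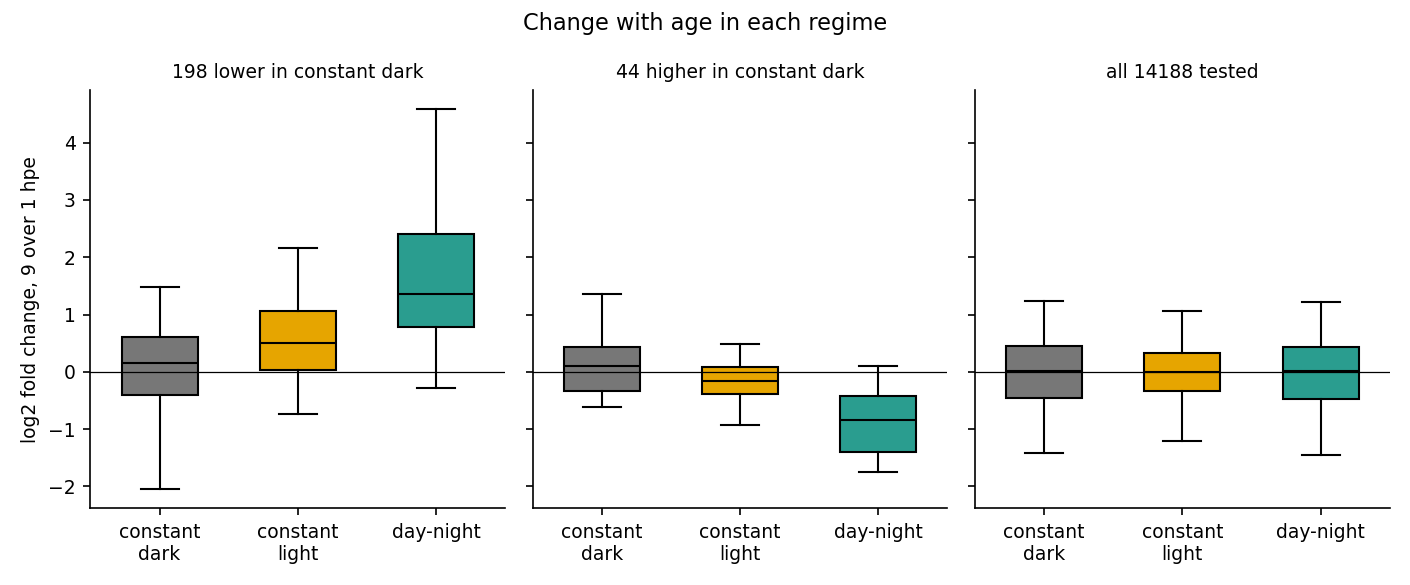
Log2 fold change of 9 over 1 hpe (vertical axis) in constant dark, constant light and day-night, for the 198 lower models, the 44 higher models and all 14188 tested models. Boxes span the quartiles with the median as a line, and whiskers reach the 5th and 95th percentiles over models, which are not replicates. In the lower list the median is 0.15 for constant dark and 1.36 for day-night, and in the higher list 0.10 for constant dark and -0.84 for day-night.

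The constant-light larvae were not compared to choose the lists either, beyond those shared steps, and their change with age involves none of the 15 compared larvae. In constant light, 373 of all tested models rose between 1 and 9 hpe (2.63%) and 494 fell (3.48%). Of the 198 lower models, 72 rose in constant light, 12 fell, and 151 (76.3%) were on the higher side at 9 hpe, against 50.1% of all tested models. Of the 44 higher models, 3 rose in constant light, 4 fell, and 16 (36.4%) were on the higher side at 9 hpe. The other models of both lists passed that test in neither direction. The called models are more abundant and of lower spread than all tested models, so they can pass a test more often in either direction. Their counts of rises and falls can therefore not be set directly against the 2.63% and 3.48%.

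The level of constant-light larvae at 9 hpe itself was also set beside both groups. The constant-light mean lay between the constant-dark and day-night means for 148 of the 198 lower models, above both for 6 and below both for 44. Over all tested models it lay between both for 4267 (30.1%), above both for 4117 and below both for 5804. For 158 of the lower models it was nearer to the constant-dark mean (79.8%), against 52.1% of all tested models. For the 44 higher models it lay between both means in 35, above both in 7 and below both in 2, and was nearer to constant dark in 33. Because the constant-dark and the day-night values both helped to choose these models, a position away from either group is in part fixed by the choice. A wide gap between their means also leaves more room for the constant-light mean to lie between them. The counts of models between both means can therefore not be set against the 30.1% of all tested models. The median log2 fold change of constant light over constant dark was 0.41 in the lower list and -0.16 in the higher list.

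The level of each list was also taken per larva, as the median log2(CPM + 1) over its models. In the lower list, constant-dark larvae at 9 hpe lay from 5.49 to 5.75 with a median of 5.60, constant-light larvae from 5.78 to 6.11 with a median near 6, and day-night larvae from 6.87 to 7.20 with a median of 7.01. In the higher list, constant-dark larvae lay from 6.02 to 6.29, constant-light larvae from 5.62 to 6.04 and day-night larvae from 4.93 to 5.47. In the lower list the 3 regimes did not overlap at 9 hpe, and in the higher list constant-dark and constant-light larvae overlapped slightly while day-night larvae lay below both. The gap between constant-dark and day-night larvae follows from how the models were picked. The constant-light larvae were not compared for that choice, but both other groups were. The distance of constant light from either group is therefore in part fixed as well. The median over all tested models was 4.29 on average in constant-dark, 4.17 in constant-light and 4.22 in day-night larvae.

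**Figure D4:**
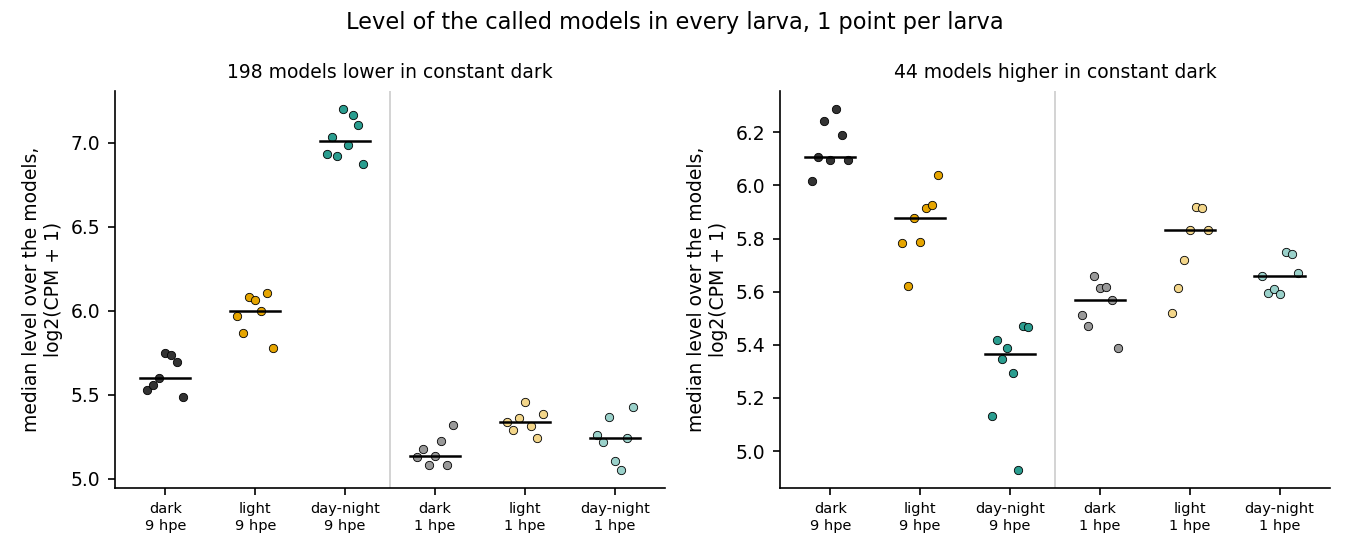
Median level of the 198 lower models (left panel) and of the 44 higher models (right panel) in each larva, as log2(CPM + 1) on the vertical axis, with 1 point per larva and the group median as a line, for constant dark, constant light and day-night at 9 hpe and then at 1 hpe. In the lower list, constant-dark larvae at 9 hpe lie between 5.49 and 5.75, day-night larvae between 6.87 and 7.20, and constant-light larvae between them.

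Whether the constant dark minus day-night difference at 9 hpe was another than at 1 hpe was tested directly, with the interaction of regime and age in the same fit. It differed between the ages for 133 models, 0.937% of those tested (edgeR quasi-likelihood test, adjusted p below 0.05). For 111 models (0.782%) the difference was more negative at 9 hpe and for 22 (0.155%) it was more positive. Over the 111, the median log2 fold change of constant dark over day-night was -1.44 at 9 hpe and 0.12 at 1 hpe. Over the 22 it was 1.06 at 9 hpe and -1.85 at 1 hpe, so that the difference at 1 hpe had a large part in the latter. These medians are descriptions, since the same larvae chose both sets. At an unadjusted p below 0.05 there were 1284 (9.05%). This test uses the same 9 hpe larvae as the comparison above, so it is not an independent repeat of it.

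The most negative interaction among the models of at least 20 CPM was that of Aqu2.1.21224_001, already described, and Aqu2.1.41008_001 was the first after it. At 9 hpe it ran from 1.43 to 3.39 CPM in constant-dark larvae, with a median of 2.39, and from 115 to 334 CPM in day-night larvae, with a median of 233. At 1 hpe it ran from 6.20 to 28.3 CPM in constant-dark larvae and from 16.4 to 87.4 CPM in day-night larvae. It thus overlapped between the regimes at 1 hpe and was far apart at 9 hpe. At 9 hpe the log2 fold change stood at -6.72 ± 0.51 (SE, edgeR adjusted p = 1.61e-12), and the interaction was -5.47 ± 0.61 (adjusted p = 8.99e-08). Between the ages it fell in constant dark, by 3.20 on the log2 scale (adjusted p = 3.12e-06), and it rose in day-night, with a log2 fold change of 2.27 (adjusted p = 3.25e-05). Constant-light larvae had 21.9 ± 16 CPM at 9 hpe and 14.1 ± 6.57 CPM at 1 hpe.

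Aqu2.1.24503_001 was low in every regime at 1 hpe, with means of 3.08 CPM under constant dark, 0.752 CPM under constant light and 1.66 CPM under day-night. At 9 hpe it ran from 1.72 to 29.3 CPM in constant-dark larvae, with a median of 4.78, from 12.4 to 91.0 CPM in constant-light larvae, with a median of 39.8, and from 48.2 to 277 CPM in day-night larvae, with a median of 146. Constant-dark and day-night larvae did not overlap at 9 hpe, and constant-light larvae overlapped with both. The log2 fold change of constant dark over day-night at 9 hpe was -4.06 ± 0.65 (SE, edgeR adjusted p = 3.85e-05) and the interaction -4.95 ± 0.93 (adjusted p = 0.00135). Its change with age was 1.42 in constant dark (adjusted p = 0.115), 5.57 in constant light (adjusted p = 4.74e-06) and 6.37 in day-night (adjusted p = 1.81e-08).

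Aqu2.1.21224_001 and Aqu2.1.25383_001, described above, also differed between the ages, with interactions of -8.01 ± 1.15 (SE, edgeR adjusted p = 1.63e-05) and 0.88 ± 0.17 (adjusted p = 0.00127). Aqu2.1.36115_001 and Aqu2.1.36255_001 did not pass, with interactions of -6.86 (adjusted p = 0.230) and 0.65 (adjusted p = 0.405).

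The 2 models named for a more positive interaction each had 1 larva far above the others. Aqu2.1.08473_001 ran from 0 to 254 CPM in constant-dark larvae at 9 hpe, with a median of 2.53, and from 0 to 0.874 CPM in day-night larvae, with a median of 0.412. Constant-dark replicate 5 had 254 CPM and the next larva of its group 15 CPM. Its log2 fold change at 9 hpe was 6.23 ± 1.31 (SE) with an edgeR adjusted p of 0.00288, and 2.88 without constant-dark replicate 5 (adjusted p = 0.245). The interaction was 9.82 ± 1.78 (adjusted p = 0.000761), and 6.46 without that larva (adjusted p = 0.0139). It did not pass with limma voom (5.22, adjusted p = 0.508), with a replicate block (6.78, adjusted p = 0.128) or with clusters of alike larvae as a term (5.69, adjusted p = 0.518). At 1 hpe the day-night mean was 13.6 ± 17.5 CPM.

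Aqu2.1.33783_001 had an interaction of 4.81 ± 1.21 (SE, edgeR adjusted p = 0.0345) with no difference called at 9 hpe, where it averaged 1.94 ± 0.596 CPM in constant-dark larvae, against 2.15 ± 1.51 CPM in day-night larvae. At 1 hpe it averaged 1.91 ± 0.892 CPM in constant-dark larvae, against 63.5 ± 159 CPM in day-night larvae, where replicate 1 had 424 CPM and the next larva 6.03 CPM. Without that larva the interaction was 0.59 (adjusted p = 0.854). Its interaction stayed past the threshold in 5 of 20 alternative settings, and leaving out constant-dark replicate 5, 6 or 7 or day-night replicate 1, 2, 4, 5, 6 or 7 at 9 hpe brought the adjusted p to between 0.0506 and 0.0619.

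**Figure D5:**
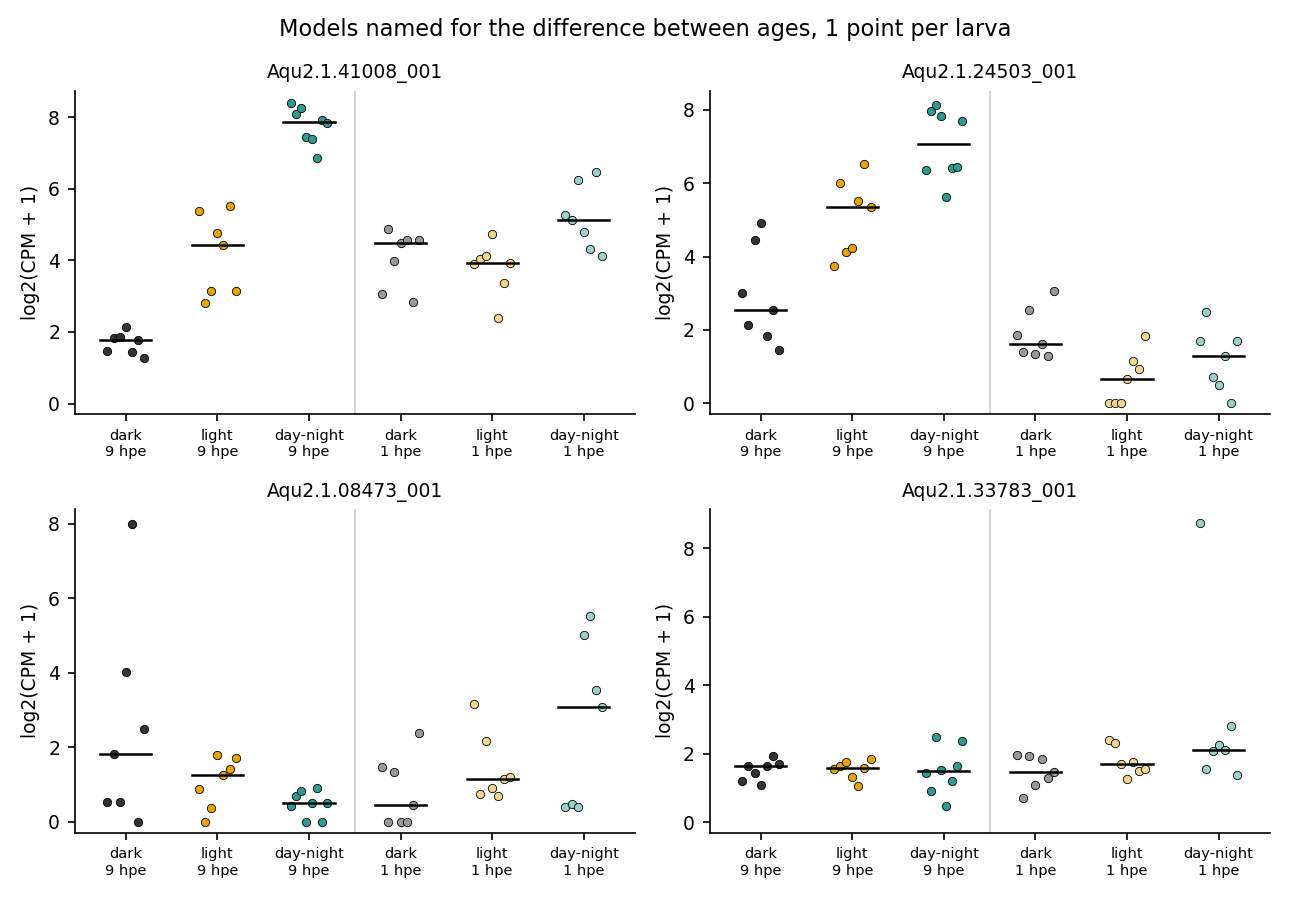
Levels of the 4 models named for the difference between ages, as log2(CPM + 1) on the vertical axis, with 1 point per larva and the group median as a line, for constant dark, constant light and day-night at 9 hpe and then at 1 hpe. Aqu2.1.41008_001 and Aqu2.1.24503_001 separate constant-dark from day-night larvae at 9 hpe, while Aqu2.1.08473_001 and Aqu2.1.33783_001 each have 1 larva far above its group, at 254 and 424 CPM.

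Some models were present in all larvae of 1 group and in none of the other. Over all 47411 models, tested or not, 2 had a count in each of the 8 day-night larvae and none in the 7 constant-dark larvae, and 0 had the opposite pattern. One is Aqu2.1.36115_001. The other, named after its values were seen, is Aqu2.1.21227_001, which was too low to be tested, with 94 counts in day-night larvae, 2 to 30 in each, and a count in 1 constant-light larva at 9 hpe. A count of 0 over the constant-dark group allows up to 3 counts and covers counting error only.

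The number in a model's identifier was read as a hint of neighbouring models, since the files hold no positions. Of the 198 lower models, 175 had a tested model at the next or the preceding number, and for 36 of these (20.6%) such a neighbour was lower too. Over all tested models with a tested neighbour, 275 of 10546 (2.61%) had a neighbour in the lower list. In the higher list it was 2 of 37 (5.41%), against 0.55% of all. Some consecutive models were called in opposite directions. Among them, Aqu2.1.36254_001 was lower beside the higher Aqu2.1.36255_001, and Aqu2.1.42552_001 lower beside the higher Aqu2.1.42551_001. Likewise, Aqu2.1.42193_001 was lower beside the higher Aqu2.1.42192_001. The 36 lower models fell into 17 runs of consecutive numbers, the longest of 4 models, with a median log2 fold change of -1.27, against -1.31 for the other lower models. Some models described above belong to these runs. Aqu2.1.41008_001 and Aqu2.1.41011_001 are in 1 run with Aqu2.1.41009_001 and Aqu2.1.41010_001. Aqu2.1.21224_001 is in a run with Aqu2.1.21225_001, and Aqu2.1.24503_001 with Aqu2.1.24504_001. Models of 1 run may not be separate examples. Consecutive numbers may mark copies of 1 gene or pieces of 1 transcript that share reads, which was not tested, so these counts were looked at after seeing the data and get no test. Identifiers that begin with TCONS held 5 called models of 363 tested (1.38%), 4 lower and 1 higher.

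Across all tested models the 15 larvae did not fall into the regimes at once. On principal component 1 of their log2 CPM, with 11.2% of the variance, constant-dark larvae lay from -52.3 to 64.4 and day-night larvae from -51.6 to 69.5. On the second, with 10.6%, constant-dark larvae lay from -66.5 to 3.08 and day-night larvae from 3.71 to 34.2, so that the groups only just did not overlap. The median correlation between larvae across all tested models was 0.862 within constant dark, 0.860 within day-night and 0.856 across the groups, as a description of larvae that share their library type.

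Some larvae were alike beyond their groups, both across the regimes and within them. With the group means removed, a step that by itself pushes correlations within a group below 0, 3 of the 56 pairs across the regimes had a correlation over 0.2. They were constant-dark replicate 7 with day-night replicate 5 (0.262), constant-dark replicate 1 with day-night replicate 6 (0.246) and constant-dark replicate 7 with day-night replicate 1 (0.208). Within the groups, where that step makes 0.2 harder to reach, 0 pairs passed it. The highest were constant-dark replicates 2 and 3 (0.116), day-night replicates 2 and 3 (0.0899) and constant-dark replicates 4 and 5 (0.0676). The median pair stood at -0.193 within constant dark and -0.163 within day-night. Larvae alike within a group would not be fully separate replicates, as the p-values take them to be. The labels give no parent, and the part of any shared source in these values was not tested. Without constant-dark replicates 1 and 7 and day-night replicates 5 and 6, an alternative added after seeing the data, 170 models were called, 153 lower and 17 higher, and 154 of them were shared with the 242. With clusters of alike larvae over all 43 as a term, 190 models were called, 156 lower and 34 higher, of which 167 were shared.

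The lower list was the steadier of both lists. Under each of the 15 fits that left out 1 larva, 147 of the 198 lower models and 17 of the 44 higher ones remained called. Under all of 24 alternative settings, which include a test against a 1.5-fold change, 81 lower and 0 higher models remained. A model that the filter dropped from a fit counts as not remaining. With limma voom, 175 lower and 25 higher models remained, and with the cluster term 148 lower and 19 higher. Against a 1.5-fold change instead of any change, 90 lower and 2 higher models passed, out of 92. Leaving out 1 larva gave 164 to 206 lower and 32 to 51 higher models. The count of models higher in constant dark and which models they are moved with the larvae and with the test, more so than in the lower list.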

How the data were processed

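Raw counts, 1 per transcript model and larva, were taken as the authors deposited them. The table held 47411 models, of which 3395 had TCONS identifiers and 8897 had no count in any of the 43 larvae. Neither the aligner and counting tool nor the genome build and annotation is given in the sources used here. A second deposited table, of normalized values, was not used.

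Groups came from the sample titles. The test was edgeR 4.0.16 in R 4.3.3, with filterByExpr by group at a minimum count of 10, TMM scaling, robust dispersions and 1 quasi-likelihood model of 6 group means over all larvae. Standard errors are the fold change over the square root of F. CPM are counts scaled to the library total of all models. Library measures used exact two-sided permutation tests over 6435 regroupings. DESeq2 1.42.0 and limma 3.58.1 served as alternatives. The fit was tested on simulated data. Larvae of 1 group differed by more than sampling noise, with a lowest chi-square per degree of freedom of 11.5 over 49 pairs. Total counts were 1890954 to 3485926 per compared larva, and floors cover counting error only.

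Members and lists were chosen with earlier results of these data known. Up to 2 higher and 2 lower models were named in each of the 2 fits by the size of the log2 value. They had to pass an adjusted p of 0.05 and average 20 CPM or more in the highest group, and at 9 hpe to be without overlap between larvae. For the interaction, models already named were passed over.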

Additional observations from a re-analysis of the deposited data

Results flagged for a closer look

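In 10 of 57 groups of 7 or 8 larvae examined, 1 larva stood apart from the rest by Dixon's criterion. Chance meets it in about 1 of 20 groups of values that follow a normal distribution. CPM near the floor are skewed, and the named models were picked by the size of their log2 value. The 10 of 57 can therefore not be set against that rate. In constant-dark larvae at 9 hpe, Aqu2.1.08473_001 reached 254 CPM in replicate 5, against 15 CPM in the next larva, and Aqu2.1.21224_001 reached 3.82 CPM, against 0.44 CPM. Replicate totals of that group had a highest value of 3485926 counts, against 2658612 in the next larva. In day-night larvae at 9 hpe, the 100 most abundant models took 17.2% of the counts in 1 larva and 15.3% in the next. At 1 hpe, Aqu2.1.33783_001 reached 424 CPM in 1 day-night larva, against 6.03 CPM, Aqu2.1.36115_001 reached 8.05 CPM, against 0.644 CPM, and Aqu2.1.21224_001 reached 2.11 CPM, against 0.822 CPM. Also at 1 hpe, Aqu2.1.36115_001 reached 1.06 CPM and Aqu2.1.08473_001 reached 4.23 CPM in 1 constant-dark larva each, and Aqu2.1.08473_001 reached 7.87 CPM in 1 constant-light larva.

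The constant dark minus day-night difference differed between 9 and 1 hpe, by the interaction in the edgeR fit, for 133 models. Among the named models the interaction, on the log2 scale, was -8.01 for Aqu2.1.21224_001, -5.47 for Aqu2.1.41008_001 and -4.95 for Aqu2.1.24503_001, the models with a more negative difference at 9 hpe. It was 0.88 for Aqu2.1.25383_001, 9.82 for Aqu2.1.08473_001 and 4.81 for Aqu2.1.33783_001. Without the larva that stood apart, the value was 6.46 for Aqu2.1.08473_001 (adjusted p = 0.0139) and 0.59 for Aqu2.1.33783_001 (adjusted p = 0.854). The interaction of Aqu2.1.08473_001 did not pass with limma voom (adjusted p = 0.508), a replicate block (0.128) or the cluster term (0.518).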

How the results depend on the processing

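The count of 242 models at 9 hpe moved by over 1.5 times with DESeq2, which called 378 (285 lower, 93 higher), and with a test against a 1.5-fold change, which called 92. It was 240 with DESeq2 size factors, 199 with no filter, 260 with a minimum count of 30, 232 with limma voom, 200 with only the compared larvae in the fit, 190 with the cluster term and 223 with only the groups at 9 hpe, the last added after seeing the data. Leaving out 1 larva at a time gave 197 to 253. Replicate numbers in the titles did not pair the larvae, with correlations of same-numbered larvae from -0.0974 to 0.0287, and a replicate block gave 209 models at 9 hpe and 114 for the difference between ages. The interaction count of 133 ran from 93 with the cluster term to 191 with DESeq2, and from 111 to 137 without 1 larva. Without day-night replicate 1 at 1 hpe, left out after seeing the data, it was 116.

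The share of the 100 most abundant models became -2.24 points with 500 models (adjusted p = 0.0793), and ranged from -1.68 to -1.13 without 1 larva. The cluster cut height of 0.9 was chosen after seeing the tree of larvae. Totals and models with a count did not pass the test under any alternative run. Depth limits the models of low level. Among the results recomputed, only the ratio of total counts and the 9 hpe fold change of Aqu2.1.33783_001 changed direction, and neither passed the test. That log2 fold change was -0.196 in the main fit, 0.136 with a replicate block and 0.002 with limma voom. The ratio of total counts was 1.009 with all larvae and 0.953 to 1.054 without 1 larva. It was below 1 without constant-dark replicate 4 or 7 or day-night replicate 4, 6 or 7. The cause of each move was not tested, beside fewer larvae or models in the fits that left some out.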
